A study of Homo sapiens with 8 samples.

Results

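The cholesterol and fatty acid synthesis module is a set of 32 genes chosen by function, out of 58735 gene rows in a table of RNA-seq read counts. It holds 7 genes of the mevalonate steps, 11 genes of the steps between squalene and cholesterol, 6 regulators or sterol carriers and 8 genes of fatty acid synthesis and desaturation. All 32 were found by their GENCODE symbols, and all 32 were among the 15647 genes tested. The membership used no measured value, although the list was drawn up with earlier results of these data known.

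The cells were SRA01/04, an immortalised line of the human lens epithelium. Cells with a hairpin RNA against SMURF1 (shSmurf1, 4 libraries) were compared with cells with a control hairpin (shControl, 4 libraries, genotype labelled WT). Both groups had received recombinant TGF-β2 at 20 ng/ml for 48 h in medium with serum, and no cells without TGF-β2 were compared. The labels name neither a second hairpin nor a rescue nor the number of clones, so the loss of SMURF1 and anything else that separates the lines cannot be told apart. The libraries are called biological replicates without a statement that the cultures were separate, so the p-values reflect only how these libraries scatter.

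SMURF1, a ubiquitin ligase, lay between 50.4 and 51.4 CPM (read counts scaled to the size of the library) in shSmurf1 libraries and between 85.8 and 93.3 CPM in shControl libraries, with a log2 fold change of −0.80 ± 0.055 (SE, adjusted p = 2.86e-09, edgeR's quasi-likelihood test with Benjamini-Hochberg adjustment). Total counts ran from 14688651 to 16789144 in shSmurf1 and from 15000813 to 17030394 in shControl. shSmurf1 replicate 3 stood apart: its median gene lay 0.191 from the mean of the rest of its group on the log2 scale, against 0.085 to 0.121 for the other 7 libraries. Its levels also ran differently with GC content. Per 10% GC they moved by −0.07 on the log2 scale, against 0.11, 0.13 and 0.15 in shSmurf1 replicates 1, 2 and 4 and −0.02 to 0.01 in shControl libraries. Of the lens markers, PAX6, SIX3, GJA1, VIM and BFSP1 were measured, while CRYAA, CRYBB2, MIP, FOXE3 and PITX3 had 4, 2, 3, 10 and 9 counts over all 8 libraries. GJA1, SIX3 and VIM were lower in shSmurf1 (−0.83, −0.37 and −0.31 on the log2 scale), PAX6 and BFSP1 lay at 0.02 and −0.16 and did not pass, and the part of such shifts in the results was not tested. The RNAs of the lens crystallins CRYAA and CRYBB2 were thus near 0 counts, at a depth of at least 14688651 counts per library.

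Cholesterol is made from acetyl-CoA through mevalonate, farnesyl diphosphate, squalene and lanosterol, and fatty acids are made from cytosolic acetyl-CoA through malonyl-CoA. The genes of both branches are known targets of the sterol regulatory element binding proteins (SREBPs), transcription factors made as precursors in the membrane of the endoplasmic reticulum. When membrane sterol is low, the escort protein SCAP carries the precursors to the Golgi, where proteases release the active factor, and when sterol is high the INSIG proteins hold SCAP back. The SREBP encoded by SREBF2 acts mainly on cholesterol genes, and the main liver isoform from SREBF1 acts mainly on fatty acid genes. The fibre cells of the lens are known for membranes unusually rich in cholesterol, whereas the line used here is epithelial.

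SREBPs bind near genes beside NF-Y, which binds the CCAAT box, and Sp1, which binds the GC box. Promoter sequences (250 bases before the start site and 50 after it) were taken from RefSeq on GRCh38.p14 and matched 28 members in 39 windows. ACAT2 and FASN had no entry. Promoters on the chromosome that holds FDFT1 and SQLE were left out, for members and for the other genes counted below. The 250 bases before the start are shown for the 3 members whose window held a match to the core of the sterol regulatory element (MSMO1, SREBF2 and MVK), and for INSIG1 and STARD4, the regulators with the largest differences between the groups. Capitals mark each match to TCACNCCA (the element's core) and to CCAAT, on either strand. The windows are INSIG1 at chr7:155297628-155297877, plus strand; STARD4 at chr5:111512536-111512785, minus strand; MSMO1 at chr4:165327419-165327668, plus strand; SREBF2 at chr22:41832855-41833104, plus strand; and MVK at chr12:109573544-109573793, plus strand.
INSIG1: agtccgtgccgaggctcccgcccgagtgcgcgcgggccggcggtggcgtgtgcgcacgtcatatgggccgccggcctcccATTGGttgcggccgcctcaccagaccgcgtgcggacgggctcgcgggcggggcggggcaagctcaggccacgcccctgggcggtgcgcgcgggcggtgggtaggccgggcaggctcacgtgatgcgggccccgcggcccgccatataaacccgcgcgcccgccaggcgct
STARD4: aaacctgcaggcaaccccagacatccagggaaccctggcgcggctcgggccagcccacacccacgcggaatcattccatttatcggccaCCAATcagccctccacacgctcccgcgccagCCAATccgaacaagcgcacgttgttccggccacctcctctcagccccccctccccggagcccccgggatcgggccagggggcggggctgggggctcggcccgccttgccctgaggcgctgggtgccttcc
MSMO1: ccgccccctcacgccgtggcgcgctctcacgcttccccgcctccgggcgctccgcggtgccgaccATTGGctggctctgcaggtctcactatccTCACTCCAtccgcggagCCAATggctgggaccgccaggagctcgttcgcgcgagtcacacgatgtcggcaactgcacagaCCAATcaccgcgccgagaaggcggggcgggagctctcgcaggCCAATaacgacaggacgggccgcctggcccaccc
SREBF2: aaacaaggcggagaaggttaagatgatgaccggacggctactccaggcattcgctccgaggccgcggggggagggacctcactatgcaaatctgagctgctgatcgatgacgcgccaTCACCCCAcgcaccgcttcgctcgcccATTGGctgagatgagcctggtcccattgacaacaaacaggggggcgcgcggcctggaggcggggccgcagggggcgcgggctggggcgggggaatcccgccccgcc
MVK: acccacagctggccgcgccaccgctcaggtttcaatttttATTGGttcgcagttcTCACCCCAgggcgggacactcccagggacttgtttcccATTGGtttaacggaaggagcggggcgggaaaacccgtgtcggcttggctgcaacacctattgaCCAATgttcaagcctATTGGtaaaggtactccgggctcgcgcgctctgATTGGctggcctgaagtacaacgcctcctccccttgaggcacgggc

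The 4 motifs were searched as exact letters on both strands over the whole 300 bases. CCAAT was found in 21 of 28 members (75%), against 42.9% of the 10819 tested genes whose promoters were searched and 39.7% of all 27305 genes searched. The GC box GGGCGG was found in 27 members (96.4%), against 76.5% of tested genes and 48.3% of all genes. The core TCACNCCA was found in 3 members (10.7%), against 4.62% of tested genes and 4.81% of all genes, and the E-box CACGTG in 4 members (14.3%), against 12.4% and 8.78%. CCAAT matches on opposite strands overlapped in IDI1 and NSDHL. In MSMO1, a single core match lay among 4 CCAAT matches, 156 bases before the start. A match to these letters is a description of the sequence and says nothing on whether a factor was bound in these cells.

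Of the 32 members, 16 were lower in shSmurf1 and 0 were higher (adjusted p under 0.05, edgeR's quasi-likelihood test). Over all genes tested, 12.2% were lower and 10.3% were higher. The median log2 fold change was −0.18 over the members and 0.01 over all genes tested, and 26 members lay below zero. In 15 members every shSmurf1 library lay below every shControl library, against 13.1% of all genes tested. At an unadjusted p under 0.05, 2 members were higher, MVD and SCAP, and DESeq2 and limma-voom likewise had 2 before adjustment and 0 after it. The differences were modest: those past the test ran from −0.18 to −0.59 on the log2 scale, where −0.59 is about 66% of the shControl level. In bulk RNA, fewer cells that express a gene and less RNA per cell cannot be told apart.

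**Figure D1:**
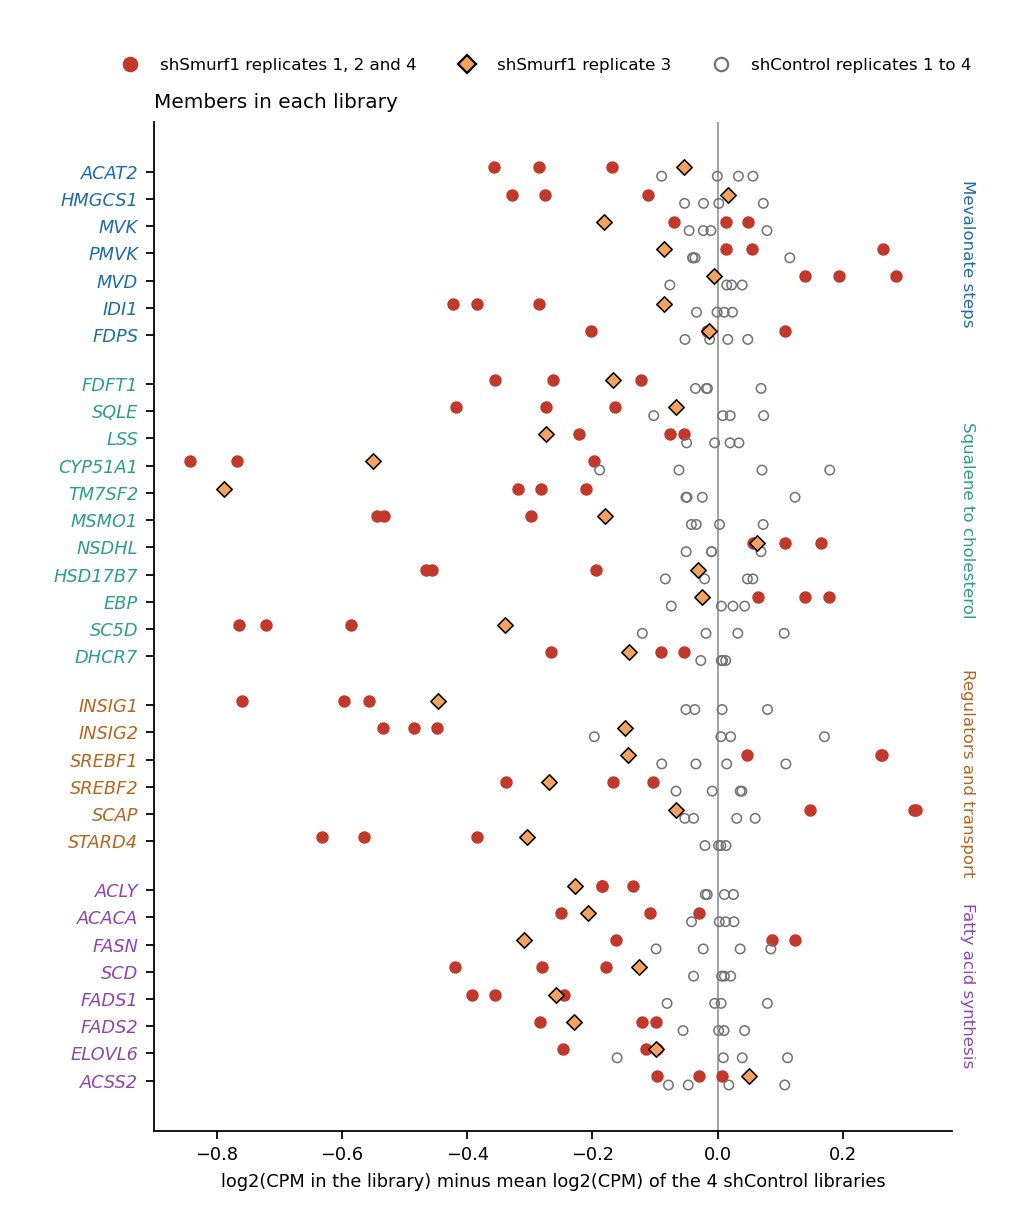
Each point is 1 library, and the x axis is its log2 CPM minus the mean log2 CPM of the 4 shControl libraries (filled red circles and orange diamonds, shSmurf1; open circles, shControl). For INSIG1, STARD4, SC5D, MSMO1 and FADS1 all 4 shSmurf1 libraries lie left of all shControl libraries, and for the GC-rich members SREBF1, SCAP and FASN shSmurf1 replicate 3 (diamond) is the lowest of all 8.

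Among the regulators, 4 of 6 were lower, with a median of −0.31. INSIG1, which retains SCAP in the endoplasmic reticulum and is itself a well-known SREBP target, had the smallest adjusted p of the members (ENSG00000186480, chr7:155297776-155310235). It had 72.3, 83.2, 89.9 and 80.9 CPM in shSmurf1 replicates 1 to 4, against 123, 118, 119 and 129 CPM in shControl replicates 1 to 4. The groups were far apart, with the highest shSmurf1 library well under the lowest shControl library. INSIG1 averaged 81.6 ± 7.25 CPM in shSmurf1 and 122 ± 5.03 CPM in shControl (SD, n = 4 each), a log2 fold change of −0.59 ± 0.063 (SE, edgeR adjusted p = 1.20e-06).

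INSIG2, its paralog with the same role in retaining SCAP (ENSG00000125629, chr2:118088452-118110997), had 20.0, 20.6, 25.3 and 19.4 CPM in shSmurf1 replicates 1 to 4, against 31.6, 24.5, 28.1 and 28.5 CPM in shControl. The groups overlapped by 1 library, since shSmurf1 replicate 3 lay above shControl replicate 2. Its log2 fold change was −0.40 ± 0.097 (SE, edgeR adjusted p = 0.00486). Per kilobase of exon, INSIG1 stood at 22.4 CPM in shSmurf1 and 33.6 CPM in shControl, and INSIG2 at 5.40 and 7.13 CPM per kilobase, so INSIG1 was the more abundant in both groups.

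STARD4, a carrier that moves cholesterol between membranes (ENSG00000164211, chr5:111496033-111512590), had 117, 133, 140.3 and 112 CPM in shSmurf1 replicates 1 to 4, against 174, 171, 173 and 175 CPM in shControl. The shControl libraries were almost level and all shSmurf1 libraries lay below them. Its log2 fold change was −0.47 ± 0.063 (SE, edgeR adjusted p = 1.99e-05).

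Of the SREBP genes, SREBF2 was lower and SREBF1 did not pass. SREBF2 (ENSG00000198911, chr22:41833079-41907308) had 217, 244, 227 and 255 CPM in shSmurf1 replicates 1 to 4, against 262, 272, 281 and 281 CPM in shControl, and the groups did not overlap. Its log2 fold change was −0.22 ± 0.054 (SE, edgeR adjusted p = 0.00625). SREBF1 (ENSG00000072310, chr17:17810399-17837002) had 132, 153, 116 and 153 CPM in shSmurf1 replicates 1 to 4, against 120.0, 125, 138 and 129 CPM in shControl. Here shSmurf1 replicate 3 was the lowest library and replicates 2 and 4 the highest, so that the groups overlapped, and the log2 fold change was 0.12 with a 95% interval of −0.04 to 0.27. The difference between both genes' fold changes was not tested.

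SCAP, the escort of the precursors (ENSG00000114650, chr3:47413694-47477126), showed a similar split within the shSmurf1 group. It had 132, 148, 114 and 149 CPM in shSmurf1 replicates 1 to 4, against 125, 115, 116 and 122 CPM in shControl. Replicates 1, 2 and 4 lay above all shControl libraries and replicate 3 below them all. The log2 fold change of 0.19 ± 0.070 did not pass (SE, edgeR adjusted p = 0.0649). SCAP, SREBF1 and SREBF2 are GC-rich, at 62.3%, 62.8% and 57.1% of the bases of their longest transcript. Their values after removal of the GC trend are given with the other treatments of the libraries.

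In the mevalonate steps, 2 of 7 genes were lower and the median was −0.05. IDI1, the isomerase of isopentenyl diphosphate (ENSG00000067064, chr10:1039152-1049170), had 64.9, 71.4, 82.0 and 66.7 CPM in shSmurf1 replicates 1 to 4, against 88.5, 87.7, 87.0 and 85.0 CPM in shControl. All shSmurf1 libraries lay below the narrow shControl range, with a log2 fold change of −0.29 ± 0.066 (SE, edgeR adjusted p = 0.00332). ACAT2, the cytosolic thiolase that joins acetyl-CoA units (ENSG00000120437, chr6:159760328-159779055), had 77.6, 81.6, 95.8 and 88.4 CPM in shSmurf1 replicates 1 to 4, against 103, 99.4, 93.5 and 102 CPM in shControl. The groups overlapped, because shSmurf1 replicate 3 lay above shControl replicate 3, and the log2 fold change was −0.21 ± 0.064 (SE, edgeR adjusted p = 0.0210). ACAT2 shares 26.5% of its exon bases with SOD2 and 33.9% with SOD2-OT1 on the opposite strand. The labels describe no step that marks the strand. The counting settings are not given either, so how reads in the shared bases were counted is unknown.

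The other 5 mevalonate genes did not pass. HMGCS1, which makes HMG-CoA, lay at 70.1 to 89.0 CPM in shSmurf1 and 84.9 to 92.6 CPM in shControl, with a log2 fold change of −0.17. The kinases MVK and PMVK lay at −0.05 and 0.07, the decarboxylase MVD at 0.16 and FDPS, which makes farnesyl diphosphate, at −0.03. The 95% interval was −0.18 to 0.09 for MVK and −0.16 to 0.11 for FDPS, so a fall as large as that of IDI1 (−0.29) lies outside both. FDPS shares 18.6%, IDI1 14.8% and HMGCS1 703 of its 4702 exon bases with an antisense gene.

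Between squalene and cholesterol, 6 of 11 genes were lower and the median was −0.23. The route is entered by FDFT1, squalene synthase (ENSG00000079459), which had 154, 164, 175 and 180.5 CPM in shSmurf1 replicates 1 to 4, against 206, 192, 194 and 194 CPM in shControl. The groups did not overlap, and the log2 fold change was −0.22 ± 0.055 (SE, edgeR adjusted p = 0.00546). SQLE, squalene epoxidase (ENSG00000104549), a flux-controlling enzyme, had 117, 130, 149.8 and 140 CPM in shSmurf1 replicates 1 to 4, against 165, 146, 158 and 159 CPM in shControl. It overlapped in 1 library of each group, and its log2 fold change was −0.23 ± 0.065 (SE, edgeR adjusted p = 0.0165). LSS, which closes the ring to lanosterol, had 154 to 179.0 CPM in shSmurf1 and 179.4 to 190.1 CPM in shControl. At −0.15 it missed the threshold (edgeR adjusted p = 0.0519). It passed as lower under 7 of 17 other treatments of the data, DESeq2 and limma-voom among them.

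The largest difference of an enzyme was that of SC5D, the sterol desaturase near the end of the route (ENSG00000109929, chr11:121292453-121308694). It had 36.4, 37.5, 48.8 and 41.2 CPM in shSmurf1 replicates 1 to 4, against 63.2, 66.5, 56.9 and 61.0 CPM in shControl. The shSmurf1 libraries were all below the shControl libraries, with a mean of 66.2% of the shControl mean and a log2 fold change of −0.59 ± 0.082 (SE, edgeR adjusted p = 2.67e-05). MSMO1, the methyl sterol oxidase that removes methyl groups from the ring (ENSG00000052802, chr4:165327623-165343160), had 58.0, 68.3, 74.1 and 57.6 CPM in shSmurf1 replicates 1 to 4, against 88.2, 82.0, 81.5 and 84.1 CPM in shControl. The groups did not overlap, and the log2 fold change was −0.38 ± 0.073 (SE, edgeR adjusted p = 0.000724).

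CYP51A1, the lanosterol demethylase (ENSG00000001630, chr7:92112151-92134803), had 8.71, 8.26, 10.1 and 12.9 CPM in shSmurf1 replicates 1 to 4, against 14.2, 13.0, 15.6 and 16.8 CPM in shControl. The groups nearly met at shSmurf1 replicate 4 and shControl replicate 2, and the log2 fold change was −0.57 ± 0.13 (SE, edgeR adjusted p = 0.00355). It shares 79.4% of its exon bases with the gene model AC000120.2 on the same strand, so its level is uncertain and rests on 123 to 266 counts per library. TM7SF2, a sterol reductase of the ring's C14 double bond (ENSG00000149809, chr11:65111845-65116384), had 8.97, 8.73, 6.31 and 9.42 CPM in shSmurf1 replicates 1 to 4, against 11.9, 10.7, 10.5 and 10.5 CPM in shControl. The groups did not overlap and the log2 fold change was −0.38 ± 0.13 (SE, edgeR adjusted p = 0.0352), but it had only 96 to 199 counts per library. TM7SF2 missed the threshold without any 1 of shSmurf1 replicates 2 and 3 and shControl replicates 1 to 4, at −0.27 without shSmurf1 replicate 3 (edgeR adjusted p = 0.0736) and −0.34 to −0.40 without the others.

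DHCR7, which makes cholesterol from 7-dehydrocholesterol, had 162 to 188 CPM in shSmurf1 and 191 to 196 CPM in shControl. Its groups did not overlap, but its log2 fold change of −0.14 did not pass. HSD17B7, a ketosteroid reductase, lay at −0.28 with an interval of −0.52 to −0.04 and did not pass either. NSDHL and EBP, a sterol dehydrogenase and a sterol isomerase on the X chromosome, lay above zero at 0.10 and 0.09. Their 95% intervals were −0.02 to 0.21 and −0.03 to 0.21, which leave out a fall of the size seen in SC5D.

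In fatty acid synthesis, 4 of 8 genes were lower, all 8 lay below zero and the median was −0.16. SCD, the desaturase that makes oleate and the most abundant member per length (ENSG00000099194, chr10:100347124-100364834), stood at 157 CPM per kilobase in shSmurf1 and 186 CPM per kilobase in shControl. It had 745.5, 881, 914 and 821 CPM in shSmurf1 replicates 1 to 4, against 971, 1004.5, 1001 and 1011 CPM in shControl. The groups did not overlap, and the log2 fold change was −0.25 ± 0.054 (SE, edgeR adjusted p = 0.00220). FADS1, the delta-5 desaturase of polyunsaturated fatty acids (ENSG00000149485, chr11:61799625-61829318), had 114, 126, 125 and 117 CPM in shSmurf1 replicates 1 to 4, against 141, 158, 149.7 and 149 CPM in shControl. The groups did not overlap, and its log2 fold change of −0.31 ± 0.054 was the largest of the branch (SE, edgeR adjusted p = 0.000260).

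FADS2, the delta-6 desaturase next to FADS1 (ENSG00000134824, chr11:61792980-61867354), had 411, 467, 426 and 459.9 CPM in shSmurf1 replicates 1 to 4, against 481, 504, 500.5 and 515 CPM in shControl. The groups did not overlap, and the log2 fold change was −0.18 ± 0.049 (SE, edgeR adjusted p = 0.0114). FADS1 and FADS2 share 490 exon bases on opposite strands, 4.79% and 4.44% of their exons. ACLY, which makes cytosolic acetyl-CoA from citrate (ENSG00000131473, chr17:41866908-41930542), had 354, 354, 344 and 367 CPM in shSmurf1 replicates 1 to 4, against 397, 398, 409 and 405 CPM in shControl. Both groups were tight and apart, and the log2 fold change was −0.18 ± 0.044 (SE, edgeR adjusted p = 0.00456).

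FASN, the fatty acid synthase, had 396, 482, 357 and 471 CPM in shSmurf1 replicates 1 to 4, against 414, 436, 469.8 and 454 CPM in shControl. The shSmurf1 libraries lay on both sides of the shControl range, with replicates 2 and 4 above it and replicates 1 and 3 below, and the log2 fold change was −0.06 with a 95% interval of −0.21 to 0.10. ACACA, which makes malonyl-CoA, lay at −0.15 (edgeR adjusted p = 0.0617). The elongase ELOVL6 and the acetyl-CoA synthetase ACSS2 lay at −0.14 and −0.02, and neither passed.

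**Figure D2:**
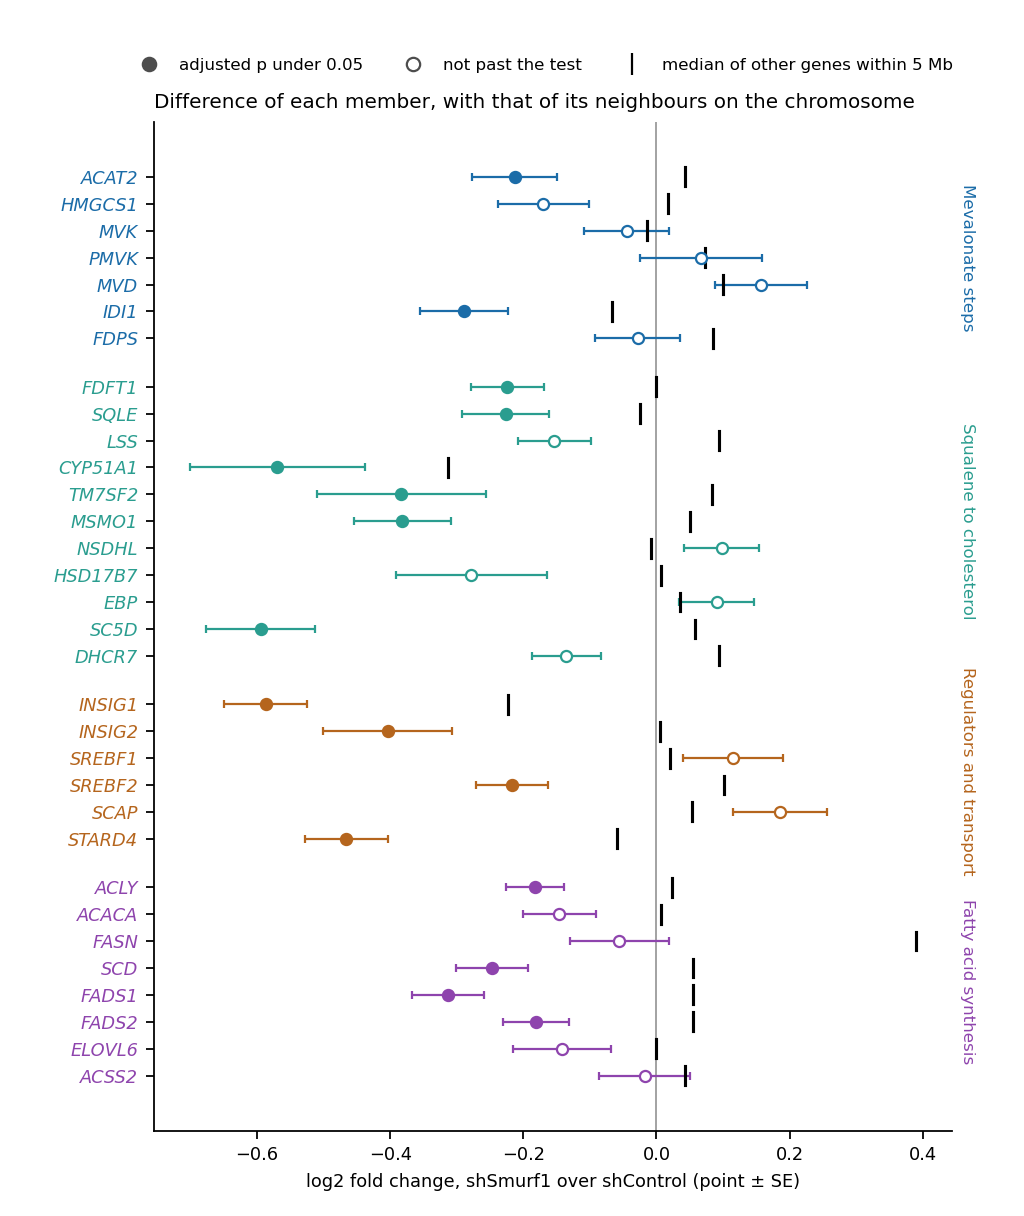
The x axis is the log2 fold change of shSmurf1 over shControl for each member (point, with its SE as the bar; filled where the adjusted p was under 0.05), and the black tick is the median of the other tested genes within 5 Mb on the chromosome. All 16 filled points, picked as lower in these same data, lie left of their tick. The ticks of INSIG1 and CYP51A1 lie below zero at −0.22 and −0.31 and that of FASN lies above it at 0.39.

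Set side by side, the 18 genes of the mevalonate and sterol steps had 8 lower members and a median of −0.19, and the 8 fatty acid genes had 4 lower members and a median of −0.16. The sterol route held a wider range, from SC5D at −0.59 to MVD at 0.16, against −0.31 to −0.02 in the fatty acid genes. It also held more genes, 18 against 8, which by itself tends to widen a range. Among the other treatments of the data, the order of the medians turned only without shSmurf1 replicate 1, at −0.149 and −0.152. Relative to the shControl mean, the median member of the mevalonate and sterol steps lay at −0.30, −0.15, −0.09 and −0.14 in shSmurf1 replicates 1 to 4, and the median fatty acid gene at −0.22, −0.11, −0.22 and −0.13. Both medians were below zero in all 4 shSmurf1 libraries. In shControl libraries the medians lay between −0.03 and 0.04, which is partly built in, since each gene was set relative to its shControl mean. The difference between the branches was not tested.

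The genes around each member on its chromosome were read beside it. The median of the other tested genes within 5 Mb was −0.22 around INSIG1 (43 genes) and −0.31 around CYP51A1 (45 genes), both on chromosome 7. Relative to these medians INSIG1 lay at −0.36 and CYP51A1 at −0.26, smaller than their own differences. Around FASN, near the end of chromosome 17, the 114 neighbours had a median of 0.39, and FASN lay at −0.45 relative to them. Every one of the 16 lower members lay below its neighbours, by −0.20 to −0.65, with SC5D the farthest, and 11 of the 16 other members did. The 16 had been picked as lower in these same data, so a place below their neighbours was largely set by that choice. The part of local position in any of these values was not tested.

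GC content differed between members that passed and those that did not, with medians of 46.8% and 57.1%. After removal, library by library, of the dependence of log2 CPM on GC, 20 members were lower and 0 higher, and all 16 that passed before were among them, joined by LSS, DHCR7, ACACA and FASN. Lower and higher calls over all genes tested rose with this removal as well, so a rise in calls was not particular to the members. FASN then lay at −0.18 ± 0.043 (SE, edgeR adjusted p = 0.00201). Without shSmurf1 replicate 3, 20 members were again lower, 15 of them shared with the first set, TM7SF2 being lost. MVD, EBP, SREBF1 and SCAP were higher. Calls rose over all genes too, with 2747 lower and 2601 higher of 15878 tested without that library. In that comparison SCAP lay at 0.26 and SREBF1 at 0.19 (edgeR adjusted p = 4.74e-05 and 0.00369). With the trend removed and replicate 3 left out together, 19 members were lower and 0 higher, SCAP lay at 0.09, SREBF1 at 0.02 and FASN at −0.19. Over all genes, lower and higher calls were again more than with all libraries and the trend kept. SCAP also passed as higher when libraries were scaled by their totals alone and when low counts were not filtered.

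**Figure D3:**
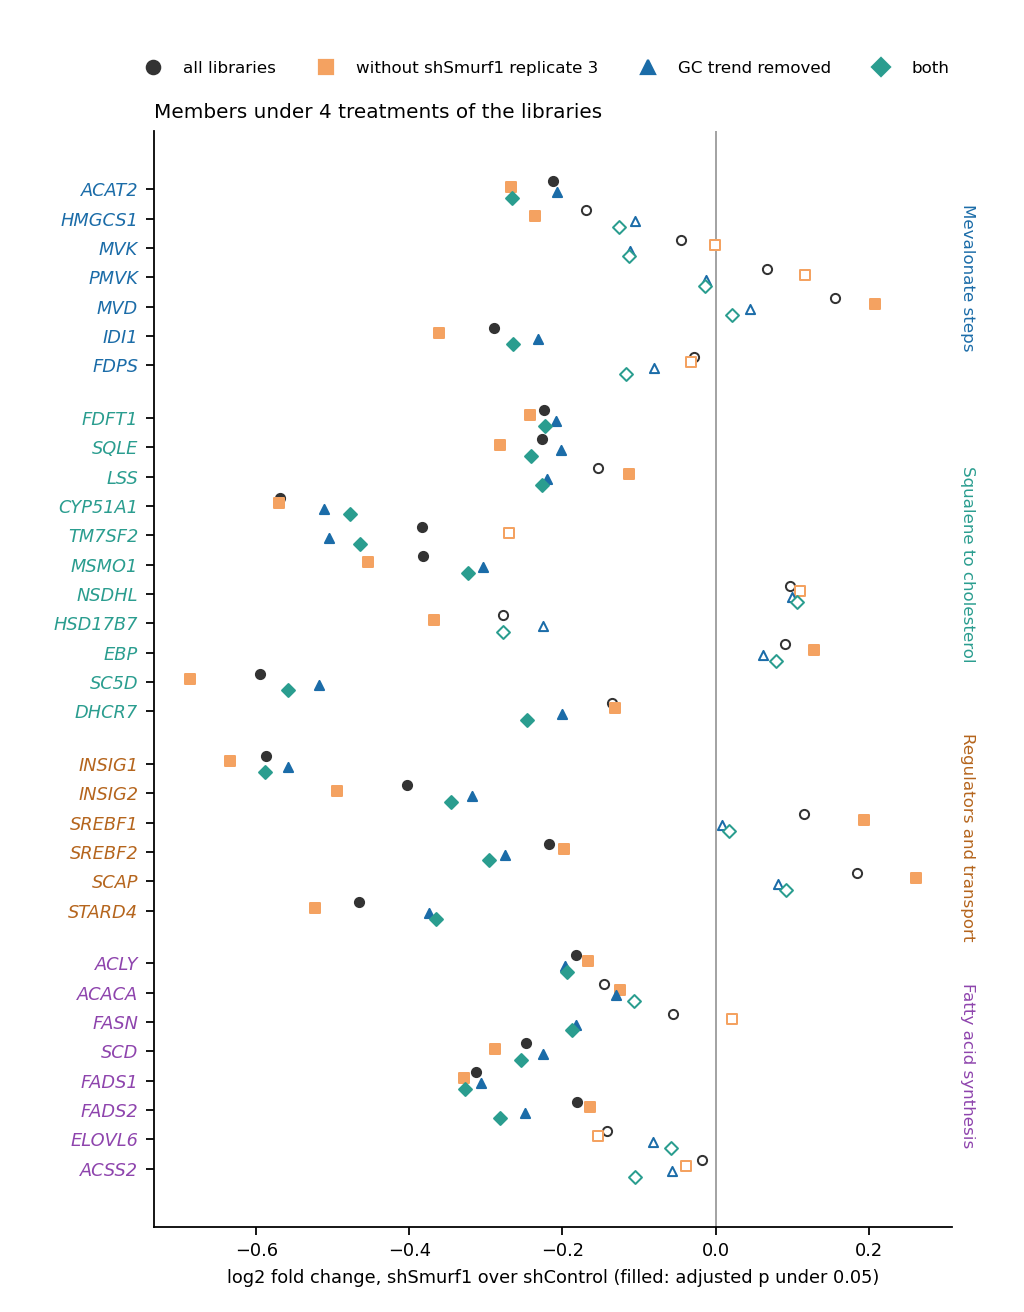
The x axis is the log2 fold change of shSmurf1 over shControl for each member with all libraries (circles), without shSmurf1 replicate 3 (squares), with the GC trend removed (triangles) and with both (diamonds), filled where the adjusted p was under 0.05. INSIG1, STARD4, SC5D and MSMO1 are filled and below zero in all 4, whereas SCAP and SREBF1 are filled only as squares and FASN only as a triangle and a diamond.

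Of the 16 lower members, 12 were lower under all 17 other treatments of the data. The exceptions were ACAT2 (12 of 17), SQLE (14 of 17), TM7SF2 (11 of 17) and FADS2 (16 of 17). ACAT2 did not pass without shSmurf1 replicate 1 or 2 or shControl replicate 1, 2 or 4, SQLE without shSmurf1 replicate 1 or 2 or shControl replicate 1, and FADS2 without shSmurf1 replicate 1. Leaving out shControl replicate 1 left 5 of the 8 lower genes of the mevalonate and sterol steps, ACAT2, SQLE and TM7SF2 being lost.

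The promoter matches were also set against these differences. Of the 21 members with a CCAAT match 10 were lower, with a median log2 fold change of −0.18, and of the 7 without one 3 were lower (INSIG2, CYP51A1 and FADS1), with a median of −0.14. Among the 3 members with a core match, MSMO1 and SREBF2 were lower and MVK did not pass. The printed windows of MSMO1 and MVK both hold a core among several CCAAT boxes, and these genes lay at −0.38 and −0.05. INSIG1 and STARD4 were lower with no match to the core letters in the window.

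Genes around the pathway were described from 5 further lists, to be read beside the 12.2% lower and 10.3% higher of all genes tested. In sterol uptake, efflux and storage, 7 of 17 tested genes were higher and 3 lower, with a median of 0.15. MYLIP, a ubiquitin ligase that degrades lipoprotein receptors, averaged 6.93 ± 0.546 CPM in shSmurf1 and 4.78 ± 0.981 CPM in shControl (SD, n = 4 each), a log2 fold change of 0.54. LPCAT3, a phospholipid acyltransferase, and CYP27A1, which makes an oxysterol, lay at 0.31 and 0.29, and SOAT1, which esterifies cholesterol for storage, at −0.27 (edgeR adjusted p = 0.00442, 0.00430 and 0.00544). ABCA1, the cholesterol efflux pump, named after its values were seen, had 35.8, 35.3, 37.1 and 37.6 CPM in shSmurf1 replicates 1 to 4, against 30.7, 30.3, 31.6 and 32.7 CPM in shControl. MYLIP, LPCAT3 and ABCA1 are known targets of the oxysterol receptors LXR, as are the members SREBF1 and SCD. SREBF1 did not pass, at 0.12, and SCD was lower, at −0.25. The activity of LXR was not tested. The count of 7 higher genes was 4 without shSmurf1 replicate 4 or shControl replicate 1, and 3 without shControl replicate 2 or 3.

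Of the 19 genes that move, cleave or degrade the SREBP system, 7 were lower and 0 higher, with a median of −0.05, and none was higher at an unadjusted p under 0.05 by edgeR, DESeq2 or limma-voom. SEC24D and SEC23A, coat proteins of the vesicles that leave the endoplasmic reticulum, lay at −0.37 and −0.24. SYVN1, a ubiquitin ligase of that membrane, lay at −0.35 and the protease MBTPS2, which cuts SREBPs within the membrane, at −0.19. The count of 7 was 3 without shSmurf1 replicate 1 or 2 or shControl replicate 2 or 4 and 4 without shSmurf1 replicate 4 or shControl replicate 1.

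The branches that leave the mevalonate pathway for prenyl groups, dolichol and ubiquinone had 1 gene higher and 1 lower of 17, with a median of 0.07. These were ICMT, which methylates prenylated proteins (0.19), and RABGGTB, a subunit of the enzyme that prenylates RAB proteins (−0.31). Neither count exceeded the share over all genes tested, 10.3% higher and 12.2% lower. Without shSmurf1 replicate 3 the counts were 2 higher and 3 lower.

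Among 28 other genes of fatty acid and glycerolipid synthesis, 10 were lower and 1 higher, with a median of −0.08. DGAT2, which makes triglyceride, averaged 4.60 ± 0.850 CPM in shSmurf1 and 8.31 ± 0.549 CPM in shControl (SD, n = 4 each), a log2 fold change of −0.85. ACSL5, an acyl-CoA synthetase, and ELOVL7, an elongase, lay at −0.77 and −0.66 at 451 and 652 counts over the 8 libraries, and LPIN1, a phosphatidate phosphatase, at −0.45 (edgeR adjusted p = 0.00450, 0.00637 and 2.07e-05). All 4 had every shSmurf1 library below every shControl library. DGAT1, the other enzyme of the last step to triglyceride, was the 1 higher gene, at 0.21, and was named after its values were seen. Its pass was lost without any of shSmurf1 replicates 1, 2 and 4 and shControl replicates 1, 2 and 3, and without shSmurf1 replicate 3 there were 3 higher genes.

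Fatty acid oxidation had 2 genes higher and 2 lower of 19, with a median of 0.03. Both counts were close to the shares over all genes tested, 10.3% higher and 12.2% lower. HADHB, of the mitochondrial trifunctional protein, lay at 0.19, and the dehydrogenases ACADM and ACADVL at −0.24 and −0.15. These counts moved with single libraries. The higher count was 4 without shSmurf1 replicate 3, 1 without shSmurf1 replicate 4 or shControl replicate 1 or 2, and 0 without shControl replicate 3. The lower count was 1 without shSmurf1 replicate 1 or shControl replicate 4, and 0 without shSmurf1 replicate 2 or 4 or shControl replicate 1, 2 or 3.

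**Figure D4:**
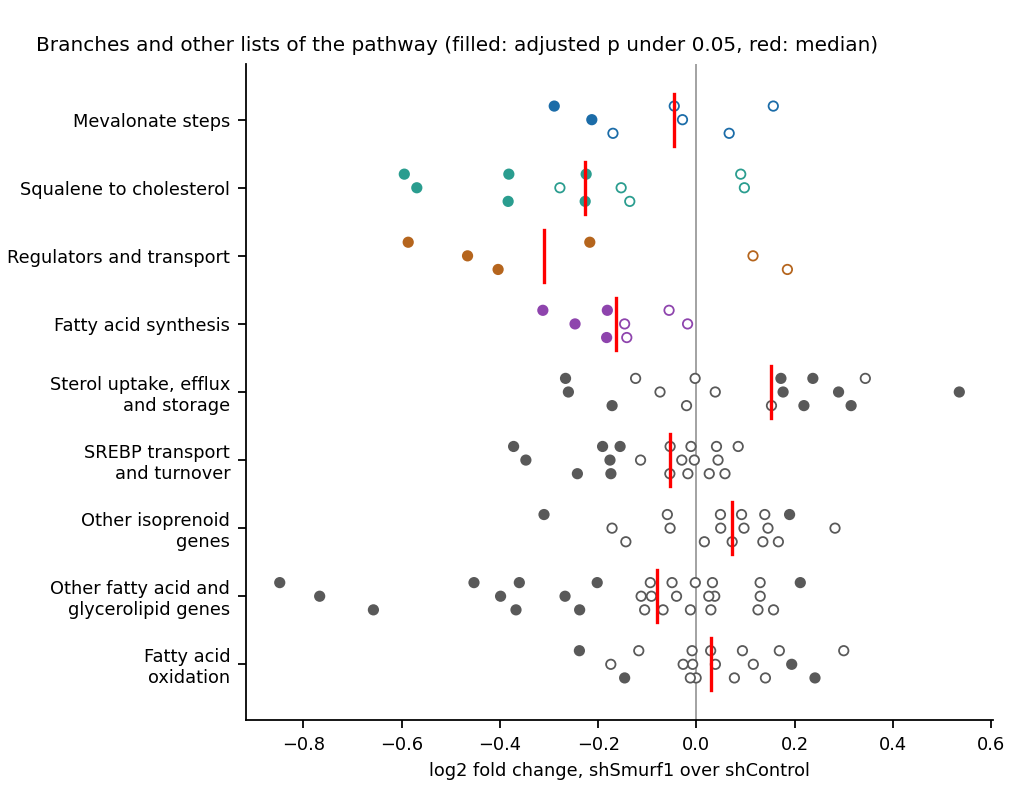
Each point is 1 tested gene, placed by its log2 fold change of shSmurf1 over shControl (filled where the adjusted p was under 0.05), and the red bar is the list's median. The medians of the 4 branches lie at −0.05 (mevalonate), −0.23 (squalene to cholesterol), −0.31 (regulators) and −0.16 (fatty acids), that of sterol uptake, efflux and storage at 0.15 and that of fatty acid oxidation at 0.03.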

How the data were processed

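Polyadenylated RNA of 8 SRA01/04 libraries was sequenced from cDNA primed with random hexamers, per the labels' protocols, with no strand-marking step described. The authors deposited whole-number read counts for each gene, without normalization. The submitters' processing notes name featureCounts version 1.5.0-p3, HISAT2 version 2.0.5, fastp and CASAVA. Build, annotation and counting settings: not given in the sources used here. All 58735 gene identifiers were found in GENCODE release 29, which gave symbols, GRCh38 coordinates and merged exon lengths. A GC content, that of the longest transcript, was available for 58676.

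Genes were kept by filterByExpr with a minimum count of 10, leaving 15647. Libraries were scaled by TMM, and shSmurf1 was compared with shControl by edgeR's two-sided quasi-likelihood F test (edgeR version 4.0.16, R version 4.3.3), with Benjamini-Hochberg adjustment over all genes tested and calls at an adjusted p under 0.05. The fit was tested on simulated data. CPM are counts scaled by the TMM library size, and an SE is the log2 fold change over the root of F. Members were read against other tested genes within 5 Mb. Other settings were DESeq2 (version 1.42.0) and its size factors, limma-voom (limma version 3.58.1), library totals, other filters, a replicate block, GC trend removal (lowess, span 0.3) and leaving out each library.

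The members, the further lists and the tests were chosen with earlier results of these data known. The named genes were all members, and from each further list up to 4 genes past the test with the largest change; all others were chosen after their values were seen. Some genes of the lists are not reported here. Intervals and depth cover counting and the spread between libraries only.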

Additional observations from a re-analysis of the deposited data

Results flagged for a closer look

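Each member's 4 libraries per group were checked for 1 library far from the other 3 relative to the group's range. Of the 64 sets checked, 3 had such a library, and chance alone marks about 1 in 20. ELOVL6 had 32.9 CPM in shSmurf1 replicate 4, below 36.1 to 36.5 CPM in the other shSmurf1 libraries. PMVK had 20.1 CPM in shControl replicate 1, above 18.1 CPM in each of the other 3 shControl libraries. TM7SF2 had 11.9 CPM in shControl replicate 1, above 10.5 to 10.7 CPM in the others.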

How the results depend on the processing

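Over 17 other settings, the members' values kept direction and side of the threshold in 497 cases, lost a pass in 15, gained one in 24 and changed sign in 8. The sign changes were all of values near zero that had not passed: PMVK (−0.012 with the GC trend removed, −0.014 with replicate 3 of shSmurf1 also left out, and −0.0069 to 0.12 when 1 library was left out), FDPS (−0.077 to 0.026 when 1 library was left out, highest without shSmurf1 replicate 1), FASN (−0.12 to 0.022, highest without shSmurf1 replicate 3) and ACSS2 (0.0034 with library totals, −0.045 to 0.018 when 1 library was left out). The cause was not tested.

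Leaving out 1 library at a time gave 13 to 20 lower and 0 to 4 higher members. It gave 5 to 11 lower and 0 to 2 higher genes of the mevalonate and sterol steps, 4 lower and 0 to 2 higher regulators, and 3 to 5 lower fatty acid genes. Over all genes it gave 1547 to 2747 lower and 1216 to 2601 higher, with 2601 without shSmurf1 replicate 3. In the further lists it gave 3 to 9 higher and 2 to 3 lower (sterol handling), 3 to 7 lower (SREBP transport and turnover), 1 to 2 higher and 1 to 3 lower (isoprenoids), 0 to 3 higher and 9 to 12 lower (other fatty acid genes), and 0 to 4 higher and 0 to 3 lower (oxidation).

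With library totals, and with no filter, 1 member, a regulator, was higher. With the GC trend removed, with or without shSmurf1 replicate 3, sterol handling had 5 lower, SREBP transport 1 higher, isoprenoids 2 lower and oxidation 4 higher genes; isoprenoids had 3 higher with all libraries and 2 without replicate 3. Other fatty acid genes had 2 higher with the GC trend removed, library totals or DESeq2, and 0 with limma-voom. With library totals, SREBP transport had 4 lower and isoprenoids 2 higher genes; oxidation had 1 lower there and with no filter.

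The replicate block left 16 members lower and 0 higher, but 3 lower genes in SREBP transport, 0 higher other fatty acid genes and 1 lower oxidation gene. Correlations of same-numbered libraries were 0.032, −0.012, −0.067 and 0.029, and 2 of the 4 shSmurf1 libraries correlated best with the shControl library of their own number. Members with few counts, TM7SF2 and CYP51A1, are the least precise.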
